A study of Schizosaccharomyces pombe with 8 samples.

Results

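The genes described here build, remodel and open the cell wall of the fission yeast Schizosaccharomyces pombe. They are the alpha-glucan synthase gene ags1, the beta-glucan synthase genes bgs1, bgs3 and bgs4, the surface glycoprotein gene adg1, the glucanase genes exg1 and eng1, and agn1. The members were chosen by name, and a member's level was read from the array probe set annotated with that gene. Of the 8 listed genes 7 had such a probe set, out of 2896 named S. pombe genes compared, and agn1, which encodes the alpha-glucanase of cell separation, was not analysed here. Each of the 7 genes had 1 probe set. The study exposed cells to nitric oxide and asked which responses need Pap1, which activates oxidative stress genes as a bZIP protein. The arrays fell into 4 groups of 2. They were the pap1 deletion strain AV25 (h- pap1::kanMX6) kept for 15 min at 30 °C with 3 mM of the nitric oxide donor detaNONOate, the same strain given decomposed detaNONOate as the control, wild type 972h- given the active donor, and wild type given the decomposed donor. All cells were grown in rich medium, moved to phosphate-buffered saline before the exposure and have the h- mating type. The deletion is represented by a single strain, and the labels call the replicates biological without saying what was separate between them, so the p-values measure the spread between these arrays.

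The S. pombe wall is made mainly of beta-glucan and alpha-glucan, which are polymerised at the plasma membrane by large multi-pass synthases. Bgs1 makes the linear beta-glucan of the primary septum, Bgs4 makes most of the branched beta-glucan of the growing wall and septum, Bgs3 is a further synthase of growing and dividing cells, and Ags1 makes alpha-glucan. At the end of division the septum is opened by secreted glucanases. Eng1 is an endo-beta-glucanase that digests the primary septum so that the daughter cells come apart, Agn1 removes the surrounding alpha-glucan, and Exg1 is a secreted exo-glucanase.

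The values are log2 expression summaries, and the median over the S. pombe genes lay between 7.85 and 7.96 in the 8 arrays. The pap1 probe set read 2.14 to 2.35 in the 4 deletion arrays and 9.90 to 10.11 in the 4 wild type arrays, so the deletion arrays lay below the background level of 3.41, set at the 95th percentile of the S. cerevisiae probe sets. The balance of signal along control transcripts also moved with the treatment. The 3' to 5' index, a median of 3' minus 5' probe set values taken from 7 S. pombe control transcripts, averaged 2.64 ± 0.12 in treated and 1.65 ± 0.01 in control deletion arrays, and 3.35 ± 0.02 in treated and 1.34 ± 0.08 in control wild type arrays (log2, SD, n = 2 each). It was thus higher in treated arrays by 0.99 in the deletion and by 2.01 in wild type. Within a strain the index and the treatment cannot be told apart. An alternative limma fit that holds the index and 1 treatment effect common to both strains is given for the members. For the lists of other genes it is given as counts or as values of named genes. That fit has no term for a difference between the strains in their response, so the index can take up the larger movement of the wild type arrays.

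All 4 glucan synthase genes fell under nitric oxide in both strains, and each fell less in the deletion. In wild type they ranged from -1.86 for ags1 to -0.60 for bgs1 on the log2 scale, and in the deletion from -0.65 to -0.27. The separation and glucanase genes went another way in the deletion, where adg1, eng1 and exg1 all rose. The calls of eng1 and exg1 there were lost in some fits that left out 1 array. In wild type adg1 fell, and eng1 and exg1 did not pass the test. Over all genes 35.5% rose and 26.9% fell in the deletion, and 40.5% rose and 39.7% fell in wild type. After treatment every one of the 7 genes was higher in the deletion than in wild type. In control cells bgs4 was lower and exg1 higher in the deletion, and the other 5 did not pass. The tests are limma's over all 2896 genes with Benjamini-Hochberg adjustment, and a gene is said to rise or fall at an adjusted p under 0.05. RNA came from whole cultures, so fewer cells at a given stage of division and less message per cell cannot be told apart.

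**Figure D1:**
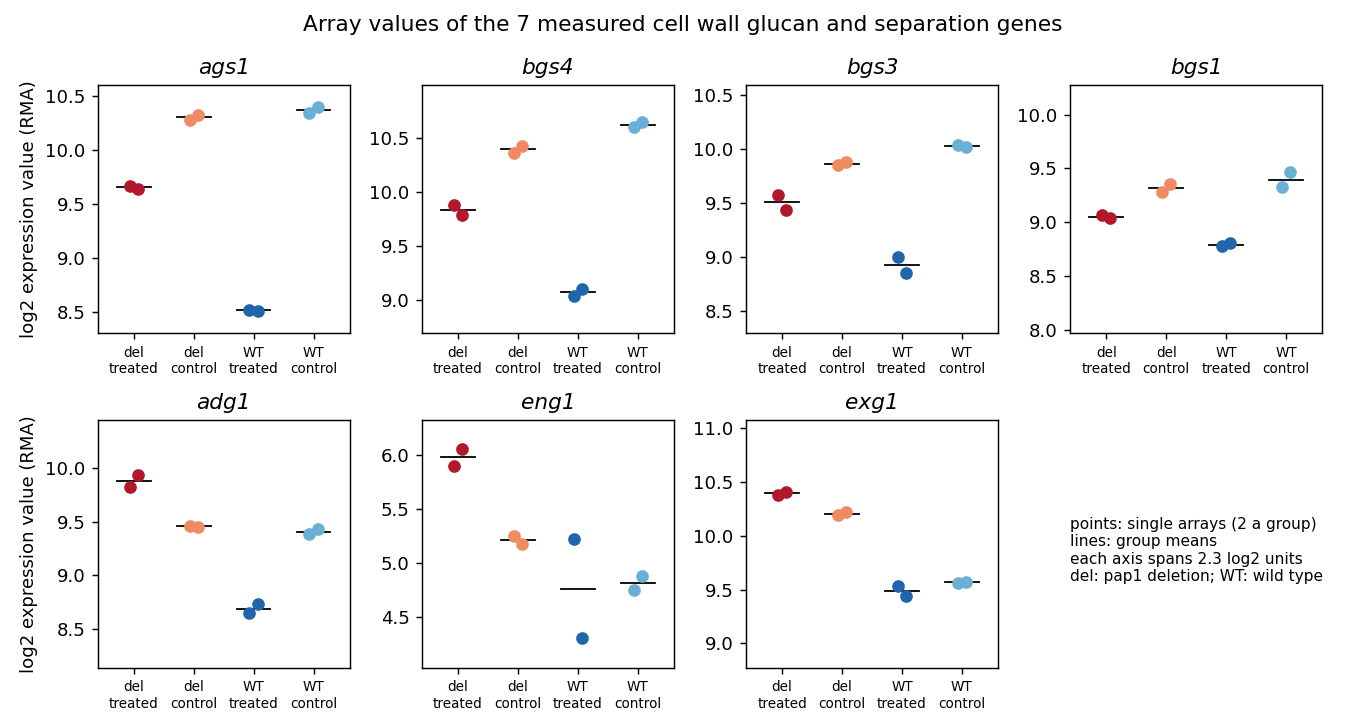
Array values of the 7 measured genes on the log2 scale, 1 panel per gene, with the groups in the order deletion treated, deletion control, wild type treated and wild type control. Points are single arrays and lines are means of 2 arrays, and every panel spans the same number of log2 units. The synthase panels share a low wild type treated pair, from 8.51 for ags1 to 9.10 for bgs4, whereas adg1, eng1 and exg1 have their highest pair in deletion treated arrays.

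The alpha-glucan synthase gene ags1 moved most among the synthases. Its log2 values were 9.67 and 9.64 in treated deletion arrays and 10.28 and 10.33 in control deletion arrays. In wild type they were 8.52 and 8.51 in treated arrays and 10.34 and 10.40 in control arrays. The control pairs of the strains lay close together, and neither treated pair overlapped its control pair. The change was -0.65 ± 0.04 in the deletion (log2 change ± SE from 2 arrays a group, adjusted p = 2.69e-05) and -1.86 ± 0.04 in wild type, a 3.62-fold fall (adjusted p = 8.01e-08). Its wild type change was the 94th lowest of the 2896 genes. The deletion change was less negative by 1.21 ± 0.06 (adjusted p = 1.79e-05 for the difference in response). With the index as a covariate the common treatment effect stood at 0.48 (adjusted p = 0.0450), with the sign turned.

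The beta-glucan synthase gene bgs4 read 9.88 and 9.79 in treated deletion arrays and 10.37 and 10.43 in control deletion arrays. Its wild type values were 9.04 and 9.10 in treated arrays and 10.60 and 10.65 in control arrays. All 4 pairs were separate, with wild type treated lowest and wild type control highest. The fall was 0.56 ± 0.05 in the deletion (-0.56, adjusted p = 1.06e-04) and 1.55 ± 0.05 in wild type (-1.55, 2.93-fold, adjusted p = 2.55e-07), and the difference in response was 0.99 ± 0.07 (adjusted p = 5.79e-05). The index fit gave 0.38 (adjusted p = 0.0424), again of the other sign.

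The other beta-glucan synthase genes moved the same way by less. For bgs3 the treated and control deletion arrays read 9.58 and 9.44 against 9.86 and 9.88, and the treated and control wild type arrays 9.002 and 8.852 against 10.04 and 10.02. Its changes were -0.36 ± 0.07 in the deletion (adjusted p = 0.00260) and -1.10 ± 0.07 in wild type (adjusted p = 3.55e-06), with a difference of 0.74 ± 0.09 (adjusted p = 4.73e-04). For bgs1, the synthase of the primary septum, the deletion arrays read 9.07 and 9.04 against 9.29 and 9.35 in control, and the wild type arrays 8.78 and 8.81 against 9.33 and 9.47. The treated pairs of both genes lay below their control pairs in each strain. The changes of bgs1 were -0.27 ± 0.06 in the deletion (adjusted p = 0.00490) and -0.60 ± 0.06 in wild type (adjusted p = 3.82e-05). The difference of 0.34 ± 0.08 between its responses (adjusted p = 0.00931) fell to 0.16 after quantile normalization of the S. pombe values and no longer passed (adjusted p = 0.131). With the index held, bgs3 stood at 0.35 (adjusted p = 0.107) and bgs1 at 0.07 (adjusted p = 0.679), so neither was called there and both signs turned.

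**Figure D2:**
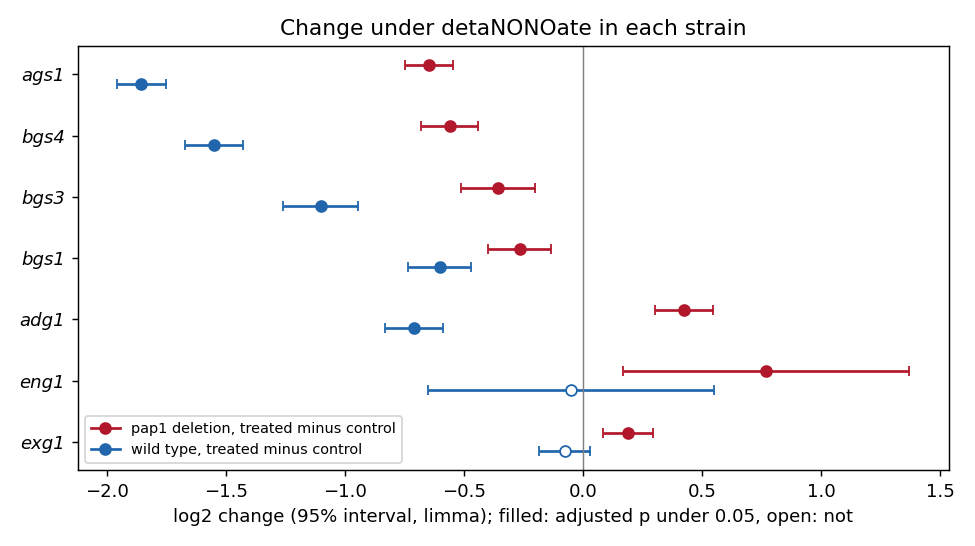
Change of each gene under detaNONOate, treated minus control, in the pap1 deletion (red, upper point of each pair) and wild type (blue, lower point), with 95% intervals from limma on the log2 scale. The 4 synthase genes lie left of 0 in both strains and nearer to 0 in the deletion, and adg1 lies at 0.42 in the deletion and -0.71 in wild type.

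The surface glycoprotein gene adg1 changed in opposite directions in the strains. It read 9.82 and 9.93 in treated and 9.46 and 9.45 in control deletion arrays. In wild type it read 8.66 and 8.73 in treated and 9.38 and 9.43 in control arrays. The control pairs differed little between strains, and treatment moved one strain up and the other down. The gene rose by 0.42 ± 0.05 in the deletion (adjusted p = 4.05e-04) and fell in wild type (-0.71 ± 0.05, adjusted p = 1.02e-05), and the responses differed by 1.13 ± 0.07 (adjusted p = 4.13e-05). A fall in wild type together with a rise in the deletion was found for 88 of the 2896 genes, or 3.04%. The index fit gave a common effect of 1.45 (adjusted p = 0.00398), which has the sign of the deletion change and not of the wild type change.

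The septum glucanase gene eng1 had the dimmest probe set of the 7, though above background in all arrays. It read 5.90 and 6.06 in treated and 5.25 and 5.18 in control deletion arrays. Its wild type arrays read 5.23 and 4.30 after treatment and 4.75 and 4.88 in control. The treated wild type arrays lay on either side of both control arrays, a gap wider than any other between replicates of these genes. In the deletion eng1 rose by 0.77 ± 0.26 (adjusted p = 0.0333). This call was lost when either array of the deletion control group, either of the deletion treated group or either of the wild type control group was left out, with adjusted p between 0.0513 and 0.142 and changes between 0.69 and 0.85, and with the index as a covariate (1.47, adjusted p = 0.0947). In wild type the change was -0.05 ± 0.26 (95% interval -0.65 to 0.55, adjusted p = 0.863). It became -0.51 (adjusted p = 0.00115) without the first treated wild type array and 0.41 (adjusted p = 0.00354) without the second. The difference in response, 0.82 ± 0.36, did not pass (95% interval -0.03 to 1.67, adjusted p = 0.0885), but passed with an intensity trend in eBayes (adjusted p = 0.0149), without the first treated wild type array (1.28, adjusted p = 1.29e-04) and without the second (0.36, adjusted p = 0.0291).

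The exo-glucanase gene exg1 differed between the strains before nitric oxide. It read 10.38 and 10.41 in treated and 10.19 and 10.22 in control deletion arrays, against 9.54 and 9.44 in treated and 9.56 and 9.57 in control wild type arrays. Every deletion array lay above every wild type array. In control cells it was 1.55-fold higher in the deletion (0.64 ± 0.05, adjusted p = 5.59e-04), the fourth highest value of 2896 genes in that comparison, and the index fit with 1 strain effect gave 0.72 (adjusted p = 1.27e-04). Under nitric oxide exg1 rose slightly in the deletion (0.19 ± 0.05, adjusted p = 0.00866), a call lost without the first control deletion array (0.18, adjusted p = 0.0534). In wild type it stood at -0.08 ± 0.05 (95% interval -0.18 to 0.03, adjusted p = 0.152), and at 0.19 after quantile normalization (adjusted p = 0.00517) and at 0.42 in the index fit (adjusted p = 0.0329), so its direction there depended on the setting. The difference in response of 0.27 ± 0.06 (adjusted p = 0.00971) did not pass after centring arrays on the median S. pombe gene (0.18, adjusted p = 0.0549) or after quantile normalization (0.02, adjusted p = 0.794).

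These calls stand beside large changes over the whole array. In the deletion 3 of the 7 genes rose, beside 35.5% of all genes tested, and 4 fell, beside 26.9%, and the median was -0.27 for the 7 and 0.05 for all genes. In wild type 0 of the 7 rose, beside 40.5% of all genes, and 5 fell, beside 39.7%, and the median change was -0.71 for the 7 genes and 0.02 for all genes. The count of 0 was the same at an unadjusted p under 0.05 and became 1 after quantile normalization, with exg1, and without the second treated wild type array, with eng1. With the index as a covariate 4 of the 7 (ags1, bgs4, adg1 and exg1) had a positive common effect and none a negative one past the threshold. A fall in both strains that was smaller in the deletion, the pattern of the 4 synthase genes, was called for 455 of 2896 genes, or 15.7%. In terms of arrays that do not overlap, both treated arrays lay above both control arrays for 3 of the 7 genes in the deletion, beside 46.7% of all genes, and below them for 4, beside 36.5%. In wild type they lay above for 0, beside 46.1%, and below for 6, beside 44.0%, with eng1 overlapping.

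The synthase genes kept a similar share of their wild type response in the deletion. The deletion change was 34.8% of the wild type change for ags1, 36.1% for bgs4, 32.5% for bgs3 and 44.3% for bgs1. Among the 730 genes that fell in wild type by at least 0.5 the median share was 34.5%, with quartiles of 18.4% and 53.0%, so the 4 genes lay within the middle range of falling genes. The rank order of the synthase genes by size of fall was the same in both strains.

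**Figure D3:**
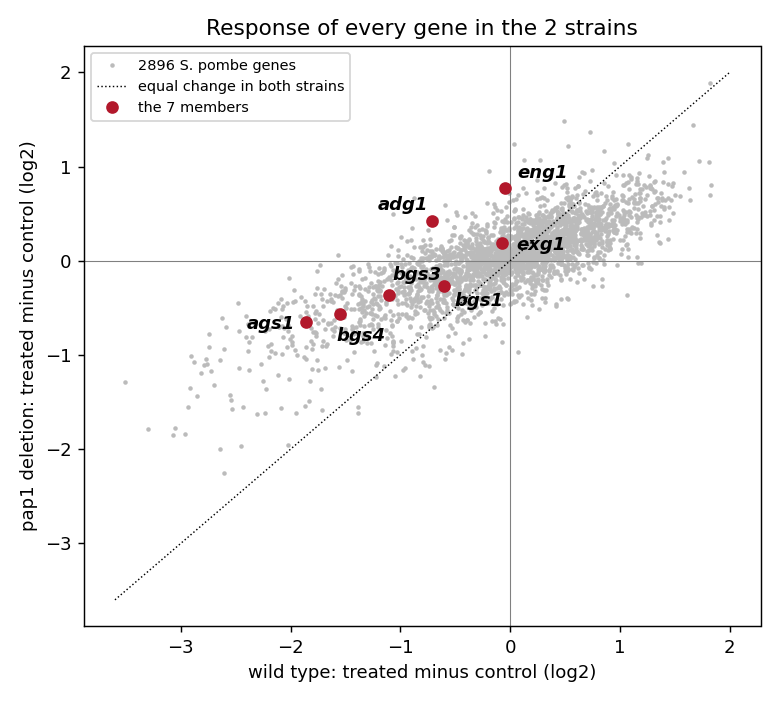
Change under detaNONOate in the pap1 deletion (vertical axis) against wild type (horizontal axis), both treated minus control on the log2 scale, for 2896 genes (grey) and the 7 members (red), with a dotted line of equal change. The 4 synthase genes lie in the body of genes that fell in both strains and above the dotted line, and adg1 lies at the upper left, a region that held 88 genes called both ways.

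Setting the deletion against wild type directly gave the same picture in levels. These comparisons use the same arrays as the responses above and add no separate evidence on the difference between the strains. In treated cells the deletion was higher by 1.22 ± 0.26 for eng1 (adjusted p = 0.00434), 1.19 ± 0.05 for adg1 (adjusted p = 5.16e-06), 1.14 ± 0.04 for ags1 (adjusted p = 3.94e-06) and 0.90 ± 0.05 for exg1 (adjusted p = 6.20e-06). The beta-glucan synthase genes were higher by 0.76 ± 0.05 for bgs4 (adjusted p = 2.09e-05), 0.58 ± 0.07 for bgs3 (adjusted p = 2.09e-04) and 0.26 ± 0.06 for bgs1 (adjusted p = 0.00538). All 7 were thus higher, beside 39.3% of all genes higher and 26.5% lower. For eng1 the value was 1.68 without the first treated wild type array and 0.75 without the second, and for bgs1 it was 0.14 and did not pass after quantile normalization (adjusted p = 0.0617). In the index fit, whose strain effect is common to treated and control cells, only ags1 (0.31), adg1 (0.40) and exg1 (0.72) remained past the threshold. The deletion arrays lay above the wild type arrays without overlap for all 7 genes, beside 46.8% of all genes above and 34.8% below. The index was lower by 0.71 in the deletion arrays of this comparison.

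In control cells the strains were closer. The gene bgs4 was lower in the deletion (-0.23 ± 0.05, adjusted p = 0.0268), a call that was lost after centring on the median gene (adjusted p = 0.0517) and when either control array of either strain was left out (-0.26 to -0.20, adjusted p 0.0783 to 0.161), and in the index fit it stood at 0.08 (adjusted p = 0.192). With exg1 this made 1 of 7 genes higher, beside 8.22% of all genes, and 1 lower, beside 9.15%. The remaining synthase genes lay at -0.16 for bgs3, -0.08 for bgs1 and -0.07 for ags1, the glycoprotein gene adg1 at 0.05 (95% interval -0.07 to 0.17) and eng1 at 0.40 (95% interval -0.20 to 1.00), none of which passed. The calls over all genes in this comparison, 503 in all, numbered 108 to 135 when any 1 of the 4 control arrays was left out. The index fit turned the sign of ags1 to 0.31 (adjusted p = 0.00929) and called adg1 higher (0.40, adjusted p = 0.00998), and eng1 was called in a fit to the control groups alone (adjusted p = 0.0108) and without either treated wild type array (adjusted p = 0.0106). A fit to the control groups alone also called bgs3 (adjusted p = 0.0297), as did an intensity trend in eBayes (adjusted p = 0.0393). Deletion arrays lay above wild type arrays without overlap for adg1, eng1 and exg1, beside 37.3% of all genes, and below them for ags1, bgs3 and bgs4, beside 32.2%. The pattern of exg1, higher in both control and treated deletion cells, was shared by 71 genes or 2.45%, and the pattern of the 5 genes that passed only in treated cells (ags1, bgs1, bgs3, adg1 and eng1) by 908 genes or 31.4%. The index was higher by 0.31 in control deletion arrays.

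For the difference in response 6 of 7 genes were called with a less negative or more positive change in the deletion, beside 33.9% of all genes called in that direction and 25.1% in the other. The counts over all genes were 983 and 728, and they became 845 and 940 after centring on the median gene and 810 and 975 after quantile normalization. Under the same scalings 5 and 4 of the 7 were called, all in the same direction. For the deletion against wild type the counts of higher and lower genes were 1139 and 766 in treated cells, 1001 and 940 after centring, and 913 and 1020 after quantile normalization. In control cells they were 238 and 265, 335 and 249 after centring, and 311 and 273 after quantile normalization.

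Other wall and septum genes were described from 6 lists, without the 7 members, which do not cover the whole pathway. The counts of every list stand beside those of all genes tested. Of these 35.5% rose and 26.9% fell in the deletion, and 40.5% rose and 39.7% fell in wild type. Genes of glucan and chitin synthesis outside the members moved in both directions. Of 8 measured, 2 rose and 2 fell in the deletion, with a median of -0.13, and 3 rose and 1 fell in wild type, with a median of 0.13. The chitin synthase homologue chs2 rose by 0.66 in the deletion and by 1.12 in wild type, and the alpha-glucan synthase homologue mok11 rose by 0.36 in the deletion and by 0.86 in wild type. A further homologue, mok14, stood at -0.11 in the deletion, where it did not pass except without the second treated deletion array (-0.22, adjusted p = 0.0161), and rose by 0.51 in wild type. The spore wall synthase gene bgs2 did not pass in the deletion (-0.20) or in wild type (0.15). With the index held, 0 of 8 were higher and 4 lower. The common effect of chs2 was then 0.21 and was not called (adjusted p = 0.439), so its rise in each strain was lost. That of mok14 was -0.73 and was called (adjusted p = 0.0119), with the wild type sign turned. That of mok11 was -0.11 and was not called (adjusted p = 0.522), with the sign turned against both strains.

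Among glucan remodelling enzymes and wall proteins the directions were mixed, as they were over all genes. In the deletion 5 of 11 rose and 4 fell, with a median of -0.09, and in wild type 4 rose and 5 fell, with a median of 0.03. The largest falls in wild type were those of psu1, a SUN family wall protein (-1.35 ± 0.05 in the deletion and -2.91 ± 0.05 in wild type), and asl1 (-0.20 in the deletion and -1.57 in wild type). The deletion call of asl1 was lost without either control deletion array or without the second treated one (adjusted p 0.0568 to 0.0865). The glucanosyltransferase gene gas5 fell by 0.52 in the deletion and by 1.45 in wild type. Its relative gas1 rose in the deletion (0.53) and stood at 0.03 in wild type, where it did not pass. With the index held, 4 of 11 were higher and none lower. The gene asl1 was among the 4 at 1.10 (adjusted p = 0.00204). Not called were gas5 at 0.32 (adjusted p = 0.1775) and psu1 at 0.05 (adjusted p = 0.908).

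The machinery that forms and times the septum had genes moving in both directions, as did the whole array. In the septation initiation network, the kinase cascade that triggers septum formation, 5 of 13 rose and 4 fell in the deletion, with a median of 0.06, and 5 rose and 5 fell in wild type, with a median of 0.05. Its GTPase gene spg1 changed by -1.14 ± 0.05 in the deletion and -1.80 ± 0.05 in wild type, the scaffold gene cdc11 by 0.74 ± 0.13 in the deletion and 1.32 ± 0.13 in wild type, and the polo kinase gene plo1 by -0.13 ± 0.05 in the deletion and -0.95 ± 0.05 in wild type. The deletion call of plo1 (adjusted p = 0.0429) was lost with an intensity trend in eBayes (adjusted p = 0.149), after centring (0.0527), with a replicate block (0.0560), in a fit to the groups compared (0.0554) and in 6 fits that left out 1 array (adjusted p 0.0612 to 0.193). Of the contractile ring genes 2 of 13 rose and 6 fell in the deletion (median -0.14), and 4 rose and 7 fell in wild type (median -0.15), led by fic1 (-1.57 in the deletion and -2.53 in wild type), rga7 (-0.36 in the deletion and -0.85 in wild type) and the myosin light chain gene rlc1 (-0.24 in the deletion and -0.78 in wild type). Of septin and exocyst genes 3 of 9 rose and the rest did not pass in the deletion (median 0.10), and 4 rose and 1 fell in wild type (median 0.09). The one that fell was the septin gene spn1 (-0.15, not passed, in the deletion and -1.54 in wild type), whereas spn4 (-0.02, not passed, in the deletion and 0.61 in wild type) and spn3 (-0.02, not passed, in the deletion and 0.31 in wild type) rose in wild type. Of the Orb6 network, which links polarity with separation, 2 of 5 fell in the deletion (median -0.11) and 3 in wild type (median -0.21), and the rest did not pass. Among them mob2 (-1.43 in the deletion and -2.56 in wild type) had a treated mean of 3.77 in the deletion and of 3.45 in wild type, close to background, and mor2 (-0.29 in the deletion and -0.21 in wild type) and orb6 (-0.10, not passed, in the deletion and -0.33 in wild type) had smaller values. The wild type calls of orb6 and mor2 were lost after quantile normalization (adjusted p = 0.203 and 0.352). The deletion change of spn1 passed under that scaling (adjusted p = 0.0192), with genes above background only (0.0492) and in 3 fits that left out 1 array (0.0344 to 0.0434). With the index as a covariate spg1, fic1 and mor2 kept the sign and call of their falls, and cdc11 (0.19) and mob2 (-0.42) were not called. The signs of plo1 (0.59), spn1 (1.12), spn4 (-0.60) and spn3 (-0.34) turned against wild type, and these turned values passed (adjusted p 0.0095 to 0.0474). The signs of orb6 (0.06), rga7 (0.04) and rlc1 (0.23) also turned, and these values were not called.

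**Figure D4:**
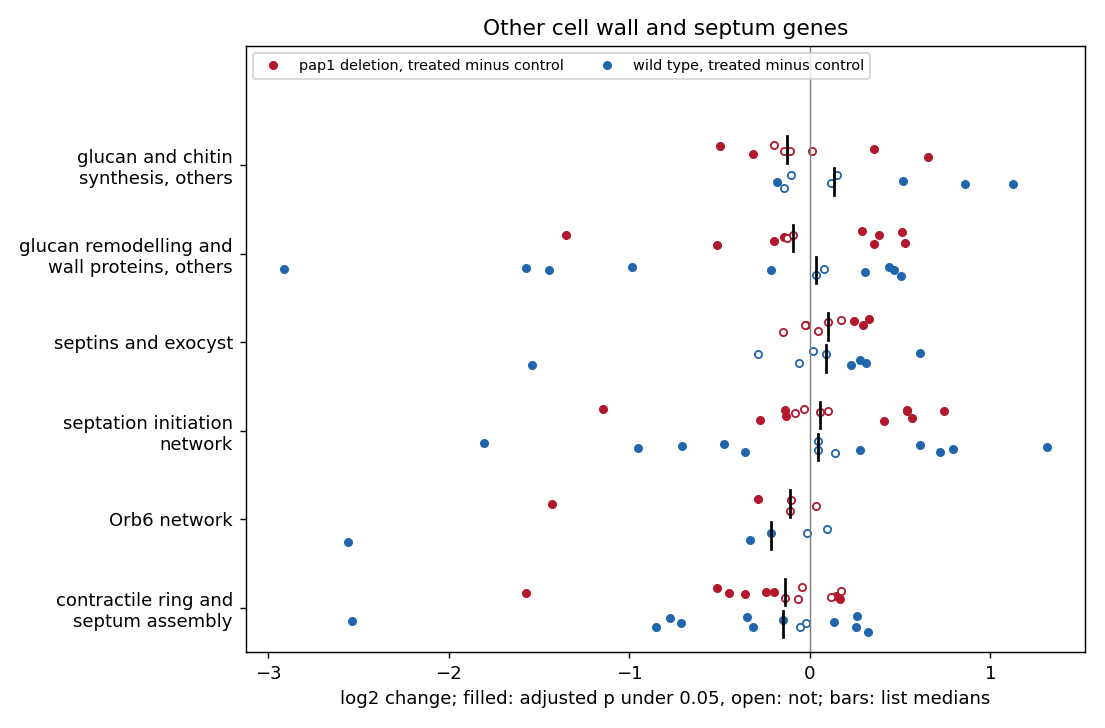
Change under detaNONOate of every measured gene of the 6 pathway lists on the log2 scale, with the pap1 deletion in red above wild type in blue. Filled points passed the test, open points did not, and black bars are list medians. Each of the 6 lists drawn has points on both sides of 0 in both strains, and the lowest point drawn is psu1 at -2.91 in wild type.

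The genes whose profiles over the 8 arrays were most like those of the members were found by the root mean square difference of mean-centred log2 values, among 2805 other genes above background. For ags1 these were tts1 (0.07) and sec62, a gene of protein import into the endoplasmic reticulum (0.07), and for bgs4 pab2 (0.07) and bet3 (0.07). For bgs3 they were pta1 (0.06) and ubc11 (0.06), and for bgs1 the ceramide synthase gene lag1 (0.05) and tif51 (0.05). The pattern of adg1 was nearest to that of the cohesin gene rad21 (0.06), which stood at 0.44 in the deletion and -0.68 in wild type, and then fft1 (0.09). For exg1 the nearest were urg1 (0.08) and the glucanosyltransferase gene gas1 (0.13), and for eng1 isp7 (0.18) and pos5 (0.21). Among the members ags1 and bgs4 (0.18), bgs3 and bgs4 (0.19) and bgs1 and bgs3 (0.20) were closest, and ags1 and eng1 (0.86) were farthest apart. With 2 arrays in each of 4 groups these likenesses rest mainly on the group means.

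The synthase genes are also among the longest on the array. The annotated lengths in the ASM294v3 assembly were 8667 bases for ags1, 7794 for bgs4, 6962 for bgs3 and 6443 for bgs1, and the sizes of their falls had the same order. They were 3730 for eng1, 1964 for exg1 and 1051 for adg1. Genes of 5 kb and over moved in both directions. Of 113 such genes 32 rose and 44 fell in the deletion (median -0.06), and 45 rose and 48 fell in wild type (median -0.02). Within this class ags1 and bgs4 had the lowest and second lowest wild type changes, bgs3 stood sixth and bgs1 stood 18th from the bottom. In the deletion ags1 stood 8th, bgs4 12th, bgs3 27th and bgs1 35th. The position of the probes along each transcript was not used here, so the part of the index in these changes was not tested.

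**Figure D5:**
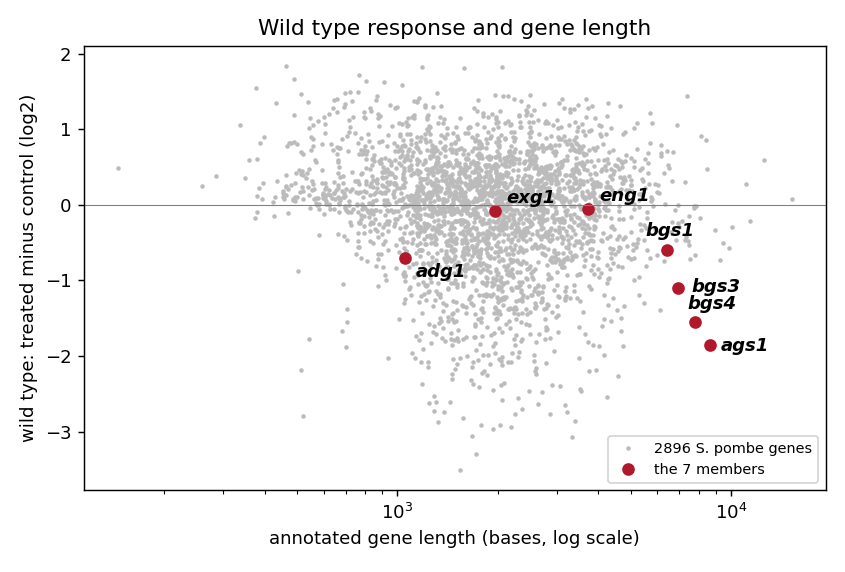
Wild type change under detaNONOate (log2, vertical axis) against annotated gene length (bases, log axis) for 2896 genes (grey) and the 7 members (red). Among genes of 5 kb and over, centred on a median of -0.02, ags1 and bgs4 are the lowest points.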

How the data were processed

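The data are 8 Affymetrix Yeast_2 arrays of biotin-labelled RNA, 2 per group, with groups and replicate numbers read from their titles. The authors deposited log2 summaries per probe set, and RMA is the method named per the submitters' processing notes, with a version not given in the sources used here. RMA brings whole arrays to a common distribution, so a shift of total RNA would not appear. These values were used without further scaling. Of 10928 probe sets 2914 name a single S. pombe gene, and the brightest was kept where 14 genes had several. Symbols come from the platform annotation through gene IDs of the RefSeq ASM294v3 table.

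Fits used R 4.3.3 and limma 3.58.1 (lmFit, 1 mean per group, eBayes without trend, 4 residual and 3.07 prior degrees of freedom, 5 contrasts), checked on simulated data, and Python 3.11.15 made the tables. The number of arrays limits the precision. The members and lists were chosen with earlier results of these data known. Named beside the members are up to 3 genes per list with the largest wild type change past the threshold and 2 nearest profiles per member. The further list genes named (bgs2 and gas1) were chosen after their values were seen. Alternatives were 2 scalings, a trend, fits to the compared groups alone, a background filter, the mean of probe sets, a replicate block, the index as a covariate and leaving out arrays. Some items of the planned lists are not reported here. A planned search of promoter motifs was not run, as no promoter sequence was used here.

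Replicate numbers were not taken as pairs, since no label says what a number shares. Replicate deviations correlated between -0.26 and 0.06 over pairs of groups (2896 genes).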

Additional observations from a re-analysis of the deposited data

Results flagged for a closer look

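Of the 7 genes 6 had a response to nitric oxide that differed between the strains by limma's test of the difference (the deletion change minus the wild type change, adjusted p under 0.05, log2 scale). The difference was 1.21 for ags1, 0.99 for bgs4, 0.74 for bgs3 and 0.34 for bgs1, all 4 of which fell in both strains. It was 1.13 for adg1, which rose in the deletion and fell in wild type in both arrays of each, and 0.27 for exg1. The differences of bgs1 and exg1 did not pass after quantile normalization, and that of exg1 did not pass after centring on the median gene. Beside the 6 calls stands 33.9% of all 2896 genes called in that direction. The 3' to 5' index was higher in treated arrays by 0.99 in the deletion and by 2.01 in wild type. The part of the index in these differences was not tested.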

How the results depend on the processing

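The largest dependence was on the 3' to 5' index. With it as a covariate 821 genes (511 higher and 310 lower) had a common treatment effect past the threshold, against 1806 genes in the deletion and 2323 in wild type without it, and 4 of the 7 members, all higher. The common effects were 0.48 for ags1, 0.0695 for bgs1, 0.35 for bgs3, 0.38 for bgs4, 1.45 for adg1 and 0.42 for exg1, each with the sign opposite to wild type. By its construction, with 1 treatment effect for both strains, this fit gives no value for the difference between strains. Its common strain effect called 696 genes and 3 members, with ags1 (0.31) and bgs4 (0.076) of the sign opposite to control cells. Of 238 values of single members under alternatives other than this one and leaving out arrays, 228 kept direction and call. The exg1 change in wild type was 0.19 after quantile normalization. In control cells the deletion differed from wild type in 1 member after centring and in 4 in a fit to these groups alone, which called 787 genes. Leaving out 1 array gave between 1 and 3 members and between 108 and 660 genes in that comparison, 5 to 7 members for the deletion under nitric oxide, 5 to 6 for wild type, 6 to 7 for the difference and 7 for treated cells. In wild type eng1 was 0.41 without the second treated array and -0.51 without the first. A fit with replicate number as a block called 7, 5, 6, 2 and 7 members in the deletion, in wild type, for the difference, in control and in treated cells, and changed none of the 35 calls of single members. In all, 263 of 280 values with 1 array left out kept direction and call.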

Other observations

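After nitric oxide 6 of the 8 measured genes of the glucan and chitin synthesis list stood opposite to the 7 members in the comparison of strains. The other 2, mok12 (-0.05) and smi1 (0.08), did not pass. In treated cells 0 of 8 genes of the glucan and chitin synthesis list were higher in the deletion than in wild type and 6 were lower (median -0.30, by limma), with mok14 at -0.62 ± 0.07, mok11 at -0.44 ± 0.05 and chs2 at -0.38 ± 0.09. The fit with the index gave a common strain effect of -0.18 for mok14, which was called (adjusted p = 0.0366). Those of chs2 (-0.05) and mok11 (-0.09) were not called. In control cells none of the 8 passed (median 0.08). Of all genes 39.3% were higher and 26.5% lower in treated cells. The contractile ring list had 8 of 13 genes higher and 1 lower in treated deletion cells (median 0.19). The index was lower by 0.71 in treated deletion arrays, and its part in these values was not tested.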
